A study of Drosophila melanogaster with 4 samples.

Results

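The achaete-scute complex is a group of 4 neighbouring genes near the tip of the fly X chromosome: ac (achaete, CG3796), sc (scute, CG3827), l(1)sc (lethal of scute, CG3839) and ase (asense, CG3258). It was examined here as the stretch X 240000 to 340000 of FlyBase release 5, and its members were all enriched regions, called clusters below, that overlap this window in the 3 deposited lists for the Polycomb group protein Psc. The window held 2 of the 13747 clusters of the 3 lists. Both were in the combined list of the replicate set (2 of 8687 clusters), and the lists of ChIP replicate 1 (2628 clusters) and ChIP replicate 2 (2432 clusters) held 0 there.

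The data came from chromatin immunoprecipitation followed by sequencing (ChIP-seq) on whole embryos of Drosophila melanogaster, wild-type strain Oregon-R-modENCODE, collected 14 to 16 h into development from population cages. There were 2 ChIP samples and 2 inputs, chromatin that had not been immunoprecipitated, and inputs 1 and 2 were the references for ChIP lists 1 and 2. No treatment or mutation was part of the design, and the labels do not say whether the replicates were separate embryo collections. Each sample pools all cell types of many embryos, so binding in few cells and weak binding in many cells cannot be told apart.

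Psc is a subunit of Polycomb repressive complex 1, which keeps developmental regulator genes silent in cells where they are not used. The 4 genes of the complex encode related basic helix-loop-helix transcription factors. In the fly, ac and sc give ectodermal cells the ability to become sensory bristle precursors, l(1)sc acts in the formation of embryonic neuroblasts, and ase is expressed in neural precursors after they have been chosen. The proneural genes are active briefly and in small groups of cells, under the control of many enhancers spread through the complex.

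In the RefSeq gene table, which is of release 6, all 4 genes were found on the X in the order ac, sc, l(1)sc, ase. Between ac and ase the table placed 4 further genes: the long non-coding RNA genes CR44751, CR44752 and CR44753 between ac and sc, and Pgcl between l(1)sc and ase. Before ac came y, which is needed for black cuticle pigment, and the long non-coding RNA gene yar. After ase came Cyp4g1, a cytochrome P450 gene involved in making cuticular hydrocarbons. Because the clusters are in release 5 and the table is in release 6, no cluster was assigned to any of these genes. That the window holds the complex comes from the definition of the window, and whether all 4 genes lie inside its bounds, ase at the far end included, was not checked.

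Most of the window was free of Psc clusters in every list. The 2 combined clusters lay at its edge nearest the tip of the X. Whether they lie between ac and ase or outside that stretch was not checked. The first, X 240318 to 241539, was 1222 bp wide and had a score of 0.45. The second, X 242821 to 243822, was 1002 bp wide and had a score of 0.44. A gap of 1281 bp separated them, and together they covered 2.22% of the window. From the end of the second cluster to the upper bound of the window, 96.2 kb held no cluster in any of the 3 lists.

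**Figure D1:**
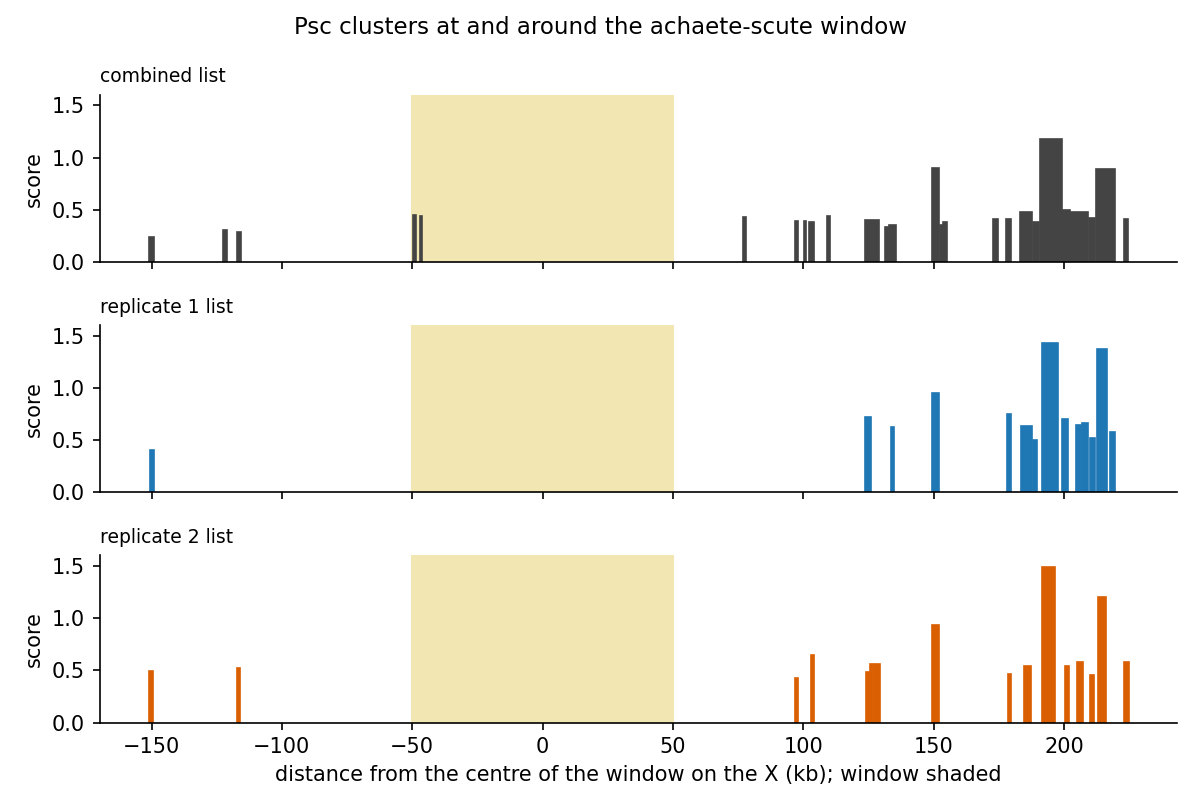
Psc clusters from all 3 lists around the achaete-scute window. The horizontal axis is the distance in kb from the centre of the window, with the window shaded, and each bar is 1 cluster drawn at its width, with the authors' enrichment score as its height (linear scale, from 0). Inside the shading only the combined list has bars, 2 narrow ones with scores of 0.45 and 0.44, while the bars above 1 stand well to the right of the window.

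The score is the authors' own enrichment value for a cluster, and the lists give it no unit, so it is used here only to place a cluster within its list. By score, the pair lay in the upper part of the combined list but near the middle of the X. Of all combined clusters, 81.8% scored lower than the first and 79.7% lower than the second. Among the 1655 combined clusters on the X the shares were 61.5% and 56.4%, since clusters on the X had a median score of 0.43 against 0.37 for the list as a whole. By width, the pair was small: 30.2% of the combined clusters on the X were narrower than the first and 2.30% narrower than the second, and the narrowest cluster of the combined list had 1001 bp.

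Neither cluster overlapped a replicate cluster. This holds for most of the combined list: 61.9% of its 1655 clusters on the X and 63.5% of all its clusters were in neither replicate list, and with 2 members, 2 of 2 cannot be told apart from these shares. Both were also narrower than 1301 bp, the width of the narrowest cluster in either replicate list. The 2 replicate lists had this same smallest width, and the combined list had 1001 bp. Whether regions as narrow as the pair could be listed for a replicate is unknown. Among the 605 combined clusters on the X below that width, 92.4% were in neither replicate list and 0 were in both. Among the 307 of these that scored at least as high as the second cluster of the window, 94.5% were in neither. The number of reads behind each cluster is unknown, and the lists hold nothing on stretches that did not pass the submitters' threshold or could not be tested, so the signal in such a stretch is unknown too.

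**Figure D2:**
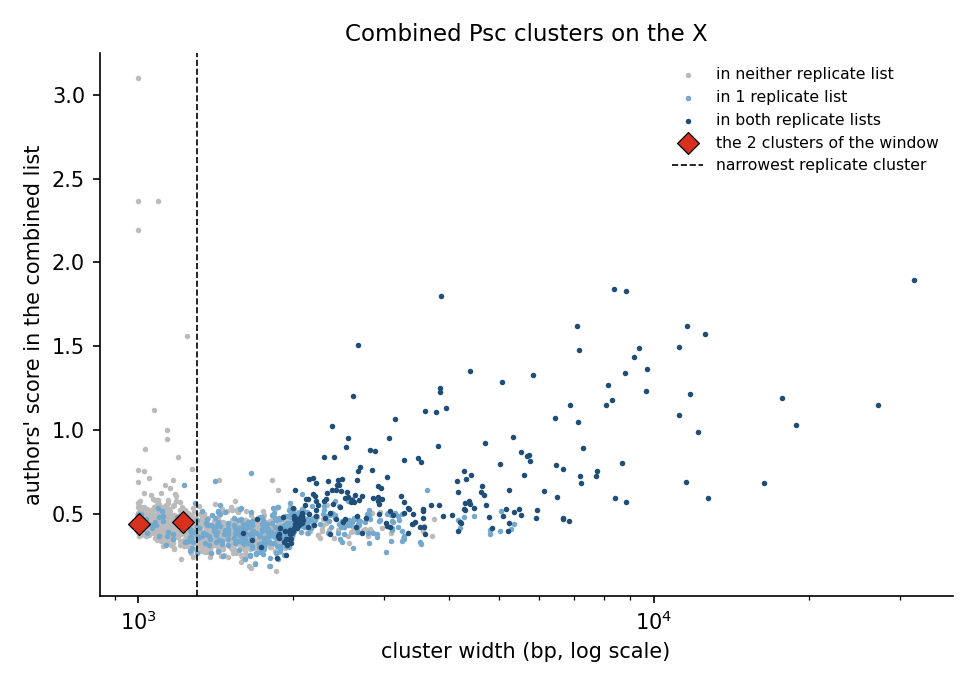
Width (horizontal, bp, log scale) and authors' score (vertical, linear) of the 1655 combined Psc clusters on the X, coloured by whether they overlap a cluster of neither, 1 or both replicate lists. The 2 clusters of the achaete-scute window (red diamonds) lie left of the dashed line at 1301 bp, the width of the narrowest replicate cluster, among clusters that mostly are in neither replicate list.

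The cluster-free stretch ran past the bounds of the window. In the combined list it went from X 243823 to 366901, 123 kb, of which 96.2 kb lay inside the window. In replicate 1 the stretch that contains the whole window went from X 140880 to 413754, 273 kb, and in replicate 2 from X 174031 to 386660, 213 kb. In the replicate lists, a stretch that holds the empty window of 100 kb is at least that long by construction. In the combined list, most of the stretch lay inside the chosen window. For these reasons the lengths are given without a rank among other stretches. The combined and replicate lists were made from the same samples, so these are not independent measurements of the stretch.

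Counted in tiles of equal length, the window was sparse but not rare. The X was divided into 223 tiles of 100 kb, placed so that the window is one of them. Tiles with stretches that could not be tested were not set apart, so they may be among those without a cluster. Of these, 40 (17.9%) held no cluster of either replicate list, against 18% of the 1186 tiles of the major arms. The window thus shares its empty replicate lists with 39 other X tiles. No replicate cluster together with at most 2 combined clusters was found in 18 X tiles (8.07%), the window included, and in 8.85% of the tiles of the major arms. The window's 2 combined clusters compare with a median of 6 per X tile, and its covered share of 2.22% with a median of 9.47%. A total of 16 X tiles (7.17%), the window among them, had a covered share that low or lower. Among the other 39 X tiles with no replicate cluster, 22 held more combined clusters than the window, 7 held the same number and 10 held fewer.

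The 117 combined clusters in those other 39 tiles had a median score of 0.42 (interquartile range 0.37 to 0.48). Their median width was 1190 bp (1073 to 1454). Of the 117, 73 (62.4%) were narrower than 1301 bp, against 605 of all 1655 combined clusters on the X. Both clusters of the window lie inside this score range. The first lies inside the width range and the second below it. Those tiles were picked for holding no replicate cluster, as the window does, so this likeness follows in part from the choice.

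**Figure D3:**
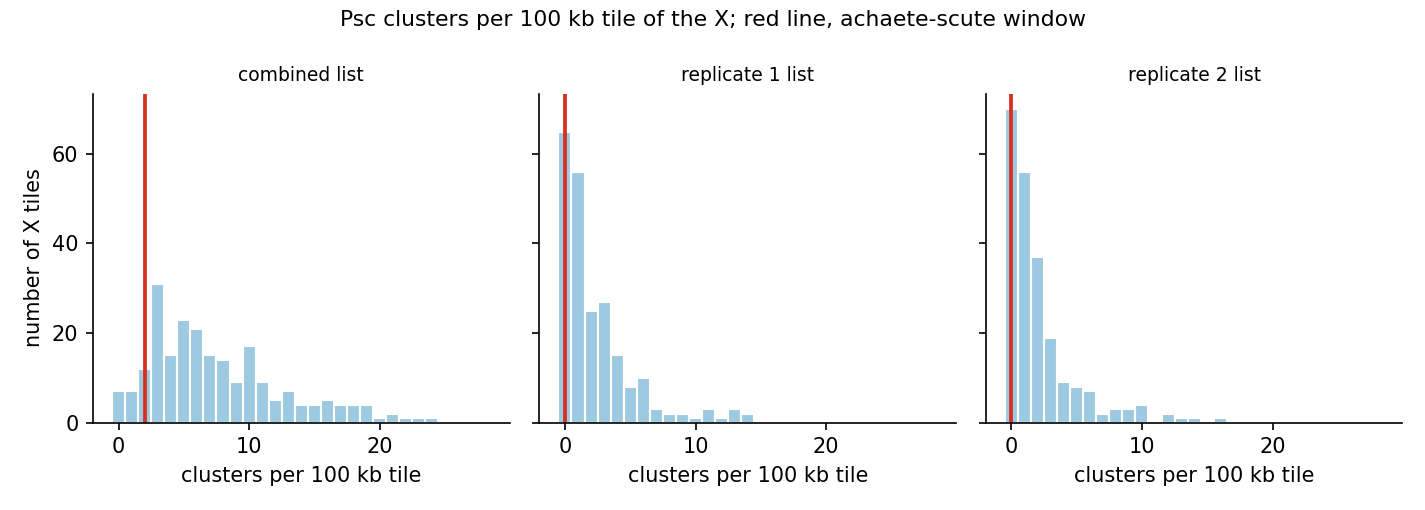
Number of Psc clusters per 100 kb tile of the X in the combined list and in each replicate list (horizontal axis), with the number of tiles on the vertical axis (223 tiles in each panel). The red line marks the achaete-scute window, with 2 clusters in the combined list, where the median is 6, and 0 in both replicate lists, a value shared by 65 tiles in replicate 1 and 70 in replicate 2.

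The pair was set apart from its neighbours on both sides. When combined clusters within 10 kb were joined, the 2 clusters formed a group spanning 3505 bp. The nearer of the groups beside it lay on the side of the tip, 66.1 kb away. The median distance to the nearer group over 518 groups on the X was 15.2 kb. Joining places every group more than 10 kb from its neighbours by construction, and no other joining distance was used. The gap on the far side is the cluster-free stretch described above. A rank by the nearer distance would rest on that gap too, so none is given. The distances are not separate evidence of sparseness.

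Psc clusters were scarce on the side of the tip and numerous on the other side. Towards the tip, the tile before the window held 3 combined clusters, 1 cluster of replicate 1 and 2 of replicate 2. The nearest cluster on that side lay 65.8 kb from the window in the combined list (X 172606 to 174177, score 0.29), 99.1 kb in replicate 1 (X 139454 to 140879, score 0.40) and 66.0 kb in replicate 2 (X 172608 to 174030, score 0.52). The combined cluster X 138924 to 140785 was met by both replicate lists. It had a score of 0.24, lower than those of the window's pair, and a width of 1862 bp. Whether score or width bears on being met was not tested.

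Away from the tip, the nearest combined cluster began 26.9 kb beyond the window (X 366902 to 367922, score 0.43), and like the pair it was narrow, at 1021 bp. The nearest clusters of the replicate lists began 46.7 kb away in replicate 2 (X 386661 to 388104, score 0.42) and 73.8 kb away in replicate 1 (X 413755 to 415851, score 0.73). The first region on this side found in all 3 lists was the combined cluster X 413776 to 418989, which replicate 1 met with 1 cluster and replicate 2 with 3. At 99.3 kb from the window, X 439323 to 441856 was met by 1 cluster of each replicate list and scored 0.90 in the combined list, higher than 96.1% of its clusters. The replicate clusters there scored 0.95 in replicate 1 and 0.93 in replicate 2, higher than 88.0% and 86.5% of their lists.

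Over 6 neighbouring tiles, coverage was low before and in the window, highest in the second tile after it, and lower again in the third. In the combined list the 2 tiles before the window were covered to 1.08% and 3.74%, the window to 2.22%, and the 3 tiles after it to 16.0%, 47.3% and 5.65%. In replicate 1 the same 6 tiles were covered to 0.546%, 0.88%, 0%, 4.01%, 30.2% and 1.33%. In replicate 2 they were covered to 1.12%, 1.92%, 0%, 8.43%, 21.0% and 0%. The difference between the window and the second tile after it was larger than the difference between the replicates in that tile. That tile was picked as the highest of the 6, so this follows in part from the choice. The difference from the window was not tested, as the lists give 2 values a tile. The strongest cluster of this stretch, X 480838 to 489138, began 141 kb beyond the window and scored 1.18 in the combined list, 1.43 in replicate 1 and 1.49 in replicate 2. A second, X 502309 to 509595, scored 0.90 in the combined list, and its highest clusters scored 1.37 in replicate 1 and 1.20 in replicate 2. Within the combined list, both of these scores were higher than the 0.45 and 0.44 of the window.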

How the data were processed

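Psc ChIP-seq was deposited as lists of enriched regions, 1 for each of 2 ChIP samples and 1 combined. Reads were processed with Bowtie 0.12.7, per the submitters' processing notes, and coordinates are FlyBase release 5, per the file headers, 1-based. The score of each region was made by the authors and deposited without a unit. For the region caller, its threshold and the making of the combined list, the settings were not given in the sources used here. Region numbers run without a missing number in all 3 lists.

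Regions overlapping X 240000 to 340000 by at least 1 bp were taken, and lists were compared by position in Python 3.11.15 with numpy 2.4.6 and pandas 2.3.3; figures used matplotlib 3.10.9. Overlap and coverage functions were checked on 20 simulated pairs of lists against base-by-base counting, with equal values in all 20. Tiles of 100 kb covered 2L, 2R, 3L, 3R and X. All comparisons are descriptions without a test. Depth is unknown. The window and the lists of genes and alternatives were chosen with earlier results of these data known. Every cluster of the window was to be named. Searches of promoters and comparison of proteins had been planned and were not run, as no sequence was used here.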

Additional observations from a re-analysis of the deposited data

How the results depend on the processing

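The share of the window covered by replicate clusters stayed at 0% when the window was widened by 20 kb at each end. It was also 0% with the window narrowed by 10 kb, the upper part of each list by score, lists of equal length, clusters within 1000 bp merged, or either replicate left out (0% to 0%), but an empty window could not change under these, so they say nothing of stability. Widened by 50 kb at each end, a bound chosen after seeing the data, the mean covered share became 0.361%, from 1 replicate 2 cluster and 0 of replicate 1. The number of combined clusters in the window, 2, fell to 0 with the window narrowed by 10 kb, since both lie at its edge. It stayed at 2 when the window was widened by 20 kb and became 4 when it was widened by 50 kb. Counting combined clusters under these 3 bounds was added after seeing the data. Overlap of 50% and the upper part of the lists left the counts of shared clusters at 0, which they could not lower. The share of tiles with coverage as low as the window was 7.17% on the X and 8.09% on all major arms. No combined cluster of the window was as wide as the narrowest replicate cluster, so that alternative gave no value. No paired analysis was possible because no input values were analysed here. Unknown read numbers and the list threshold limit what an empty stretch can show.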
